A study of Mus musculus with 16 samples.

Results

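Liver RNA from male mice without the hepatic glucagon receptor (LKO) was compared with liver RNA from male CRE- mice. These livers gave 8 of the 16 libraries in the deposited count table. The other 8 are female livers, and all 16 entered the fit as 4 groups. The LKO libraries were B1 to B4, here LKO 1 to LKO 4, and the CRE- libraries were A1, A2, A3 and A5, here CRE- 1 to CRE- 4. Every gene with enough counts was tested, which left 16742 of 41079 genes. All the mice were C57BL/6J males aged 20 to 22 months. Both groups carried Gcgr alleles with LoxP sites around several exons. The LKO mice also carried Albumin-Cre, which is active in hepatocytes, and the CRE- mice had no Cre transgene, so the presence of Cre differed between the groups together with the receptor. The comparison asks how the aged male liver responds when hepatocytes lose glucagon signalling, by pathway and by gene. The p-values measure the spread between mice within the 4 groups of the fit.

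Each library held between 33351783 reads on genes (LKO 1) and 49713515 (CRE- 2). Gcgr, the targeted gene at chr11:120420011-120429815 of GRCm39, was at 190.4, 193, 127 and 189.6 CPM in CRE- 1 to 4 and 117, 136, 129.9 and 160.3 CPM in LKO 1 to 4, where CPM are read counts scaled to library size with edgeR's trimmed mean of M values. The means were 175 ± 31.8 CPM in CRE- and 136 ± 18.3 CPM in LKO (SD, n = 4 each). CRE- 1, CRE- 2 and CRE- 4 were above all 4 LKO mice, while CRE- 3 lay between LKO 1 and LKO 3, so the groups overlapped. By Gcgr alone CRE- 3 could not be told from an LKO mouse. In Asns (0.468 CPM), Fgf21 (1.46 CPM) and Pde4b (23.8 CPM), CRE- 3 lay with the other CRE- mice. These genes were called between the groups with CRE- 3 among the controls, so they cannot check the label of CRE- 3. Whether its label is right was not tested. The log2 fold change was -0.37 (SE 0.24) and did not pass the quasi-likelihood test of edgeR, adjusted after Benjamini and Hochberg over all genes tested (adjusted p 0.671, 4 of 4 LKO mice below the CRE- mean). An exact permutation test, two-sided and over all 70 ways to split the 8 mice, gave p = 0.114 for a difference of -0.36 in mean log2 CPM, where the smallest possible p is 0.0286. Without CRE- 3 the log2 fold change was -0.51, and without LKO 1 it was -0.32. Reads were counted over all exons of Gcgr, also those that Cre leaves in place, so the level measures how much transcript was present and not how much of it was intact. The paper reports a separate measure of Gcgr mRNA, which was lower in LKO mice in the liver alone among the tissues it examined.

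CRE- 3 and LKO 1 stood apart from the other male libraries. The mean correlation of log2 CPM across genes with the other 7 libraries was 0.935 for CRE- 3 and 0.949 for LKO 1, against 0.957 to 0.965 for the other 6. CRE- 3 was the highest library in 25.9% and the lowest in 28.2% of the genes tested, and LKO 1 in 13.4% and 12.5%. Each of the other 6 was the highest in 6.45% to 12.3% and the lowest in 6.2% to 16.2%. In CRE- 3, 443 genes were above and 801 below all 7 other libraries by more than 1 log2 unit, and in LKO 1 the counts were 112 and 245. Both libraries had the sex markers of males. Xist stayed at or below 0.243 CPM in all 8 libraries. The Y-linked gene Ddx3y was at 62.5, 48.8, 91.5 and 38.5 CPM in CRE- 1 to 4 and 58, 51.1, 54.8 and 45.5 CPM in LKO 1 to 4. The summed level of the 12 hepatocyte markers was 95157, 127139, 144525 and 123726 CPM in CRE- 1 to 4 and 89974, 102243, 117428 and 102950.0 CPM in LKO 1 to 4, led by Alb, and CRE- 3 had the highest sum. Of these 12 markers edgeR, DESeq2 and limma-voom each called 0, while 1 higher and 3 lower markers had an unadjusted p under 0.05, with a median log2 fold change of -0.08 (0.04 without LKO 1, -0.17 without LKO 4, -0.02 without CRE- 4). What set CRE- 3 and LKO 1 apart was not tested, and gene fold changes and list medians are given with all 8 mice and again without LKO 1.

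At an adjusted p under 0.05, edgeR called 76 genes in male LKO against male CRE- livers (0.454% of the genes tested), 37 higher (0.221%) and 39 lower (0.233%). Before adjustment 1595 genes (9.53%) had a p under 0.05, of which 802 were higher (4.79%) and 793 lower (4.74%). Without regard to any test, the 4 LKO values lay above all 4 CRE- values in 598 genes (3.57%) and below them in 489 genes (2.92%). The groups were separated in this way in 36 of the 37 higher calls, all but Cav1, and in 39 of the 39 lower calls. The median log2 fold change over all genes tested was -0.01, and it is the value to set each list median against, since every median given is one of log2 fold changes. Lists and their members were chosen with earlier results of these data known, so the share of a list called carries no test. Without LKO 1, 17070 genes were tested and 43 were called (0.252%), 24 higher (0.141%) and 19 lower (0.111%), while 616 higher (3.61%) and 779 lower (4.56%) genes had an unadjusted p under 0.05, with a median of -0.03. Of the 76 calls, 38 were also called without LKO 1, and Fmn1, Cyp7b1, Hsd3b5, Mup11 and Slco1a4 were called only without it. Leaving out any mouse, which also makes its group smaller, lowered the number of calls. It was 28 without CRE- 1, 32 without CRE- 2, 26 without CRE- 3 and 49 without CRE- 4. Among LKO mice it was 43 without LKO 1, 41 without LKO 2, 39 without LKO 3 and 40 without LKO 4. Such a fall does not by itself show that a mouse stood apart. All 76 genes kept their direction in each of those 8 fits, and 23 of them passed in all 8. DESeq2 called 339 genes, among them all 76, and limma-voom called 148, with 60 of the 76 among them.

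**Figure D1:**
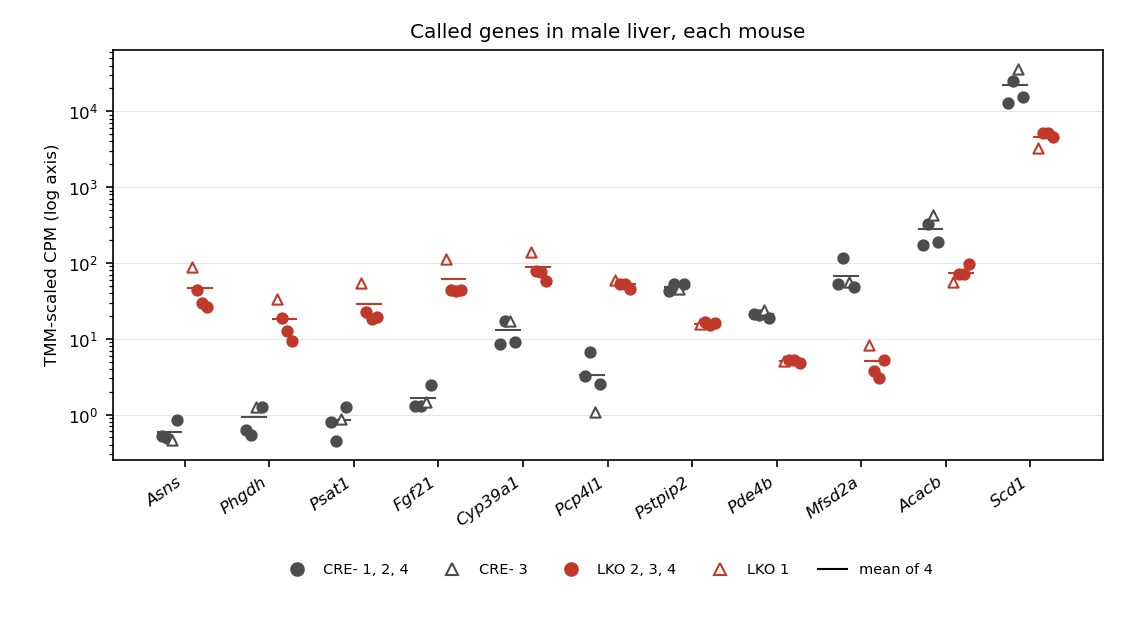
Level of 11 called genes in each of the 8 male livers, in CPM on a log axis, with CRE- mice in grey and LKO mice in red. Open triangles mark CRE- 3 and LKO 1, bars are the arithmetic mean of 4 mice, and in each of these genes the 4 LKO values lie on 1 side of the 4 CRE- values, for example Asns at 0.468 to 0.854 CPM in CRE- and 26.4 to 87.9 CPM in LKO.

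Glucagon acts on hepatocytes through a receptor coupled to adenylate cyclase. The cAMP it raises activates protein kinase A, which phosphorylates CREB and other proteins, and phosphodiesterases break cAMP down. Of 22 tested receptor and cAMP cascade genes, 0 rose and 1 fell by edgeR (4.55% called), the call being Pde4b, and 0 higher and 2 lower genes had an unadjusted p under 0.05. Those receptor and cAMP cascade genes held 0 higher and 1 lower calls without LKO 1 (0 and 2 unadjusted). The receptor and cAMP cascade median was -0.29, and -0.26 without LKO 1, -0.15 without CRE- 3. Pde4b, which encodes a phosphodiesterase that degrades cAMP, was at 21.5, 20.4, 23.8 and 18.6 CPM in CRE- 1 to 4 and 5.17, 5.25, 5.32 and 4.75 CPM in LKO 1 to 4. All 4 LKO mice were near 5 CPM and all 4 CRE- mice at 18.6 CPM or more, so Pde4b fell (log2 fold change -2.04, SE 0.28, edgeR adjusted p 0.0029, 4 of 4 LKO mice lower), with -2.06 without LKO 1. Pde4b also passed without each mouse in turn (edgeR adjusted p up to 0.0138). Ppargc1a, a coactivator gene that cAMP induces in liver, was at 10.8, 8, 15.3 and 6.92 CPM in CRE- 1 to 4 and 5.71, 4.41, 7.11 and 4.38 CPM in LKO 1 to 4. LKO 3 lay above CRE- 4, the lowest control, so the groups overlapped, and the log2 fold change of -0.92 did not pass (edgeR adjusted p 0.333, 4 of 4 LKO mice below the CRE- mean, -0.97 without LKO 1).

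The integrated stress response begins when kinases such as GCN2 or PERK phosphorylate the translation factor eIF2alpha. Translation of the transcription factor ATF4 then increases, and ATF4 raises genes for amino acid synthesis, amino acid import and tRNA charging. Of 45 tested ATF4 target genes, 10 rose and 0 fell by edgeR (22.2% called), and 31 higher and 0 lower genes had an unadjusted p under 0.05. Those ATF4 target genes held 6 higher and 0 lower calls without LKO 1 (27 and 2 unadjusted). The ATF4 target median was 0.87, and 0.83 without LKO 1. The groups did not overlap in 31 of these genes, all higher in LKO, against 3.57% of all genes tested, and LKO 1 was the highest library in 28 of the 45 tested. The number of ATF4 targets called was 4 without CRE- 1, CRE- 2 or CRE- 3, 6 without LKO 1, 7 without LKO 2 or LKO 4 and 8 without CRE- 4 or LKO 3.

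Asns, which makes asparagine from aspartate and lies at chr6:7675169-7693209 of GRCm39, was at 0.527, 0.49, 0.468 and 0.854 CPM in CRE- 1 to 4 and 87.9, 44, 29.5 and 26.4 CPM in LKO 1 to 4. No CRE- mouse reached 1 CPM and no LKO mouse was under 26.4 CPM, so Asns rose (log2 fold change 6.32, SE 0.68, edgeR adjusted p 0.000425, 4 of 4 LKO mice higher), with 5.80 without LKO 1. Asns also passed without each mouse in turn (edgeR adjusted p up to 0.00348). Phgdh, the first enzyme of serine synthesis, was at 0.629, 0.535, 1.25 and 1.26 CPM in CRE- 1 to 4 and 33, 18.6, 12.6 and 9.29 CPM in LKO 1 to 4. LKO 1 was highest and the groups were far apart, and Phgdh rose (log2 fold change 4.32, SE 0.46, edgeR adjusted p 0.000425, 4 of 4 LKO mice higher), with 3.86 without LKO 1. Phgdh also passed without each mouse in turn (edgeR adjusted p up to 0.00336). Psat1, the next enzyme of serine synthesis, was at 0.812, 0.446, 0.884 and 1.26 CPM in CRE- 1 to 4 and 54.6, 22.3, 18.4 and 19.5 CPM in LKO 1 to 4. LKO 1 was above the other 3 LKO mice, which themselves were all above the CRE- mice, and Psat1 rose (log2 fold change 5.07, SE 0.63, edgeR adjusted p 0.00132, 4 of 4 LKO mice higher), with 4.54 without LKO 1. Psat1 also passed without each mouse in turn (edgeR adjusted p up to 0.0093).

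A further 5 calls among the ATF4 targets were each lost with 1 or more single mice removed. Aldh1l2, a mitochondrial folate enzyme, ranged over 0.225 to 0.52 CPM in CRE- and 2.64 to 10.3 CPM in LKO, and rose (log2 fold change 3.74, edgeR adjusted p 0.0166, 4 of 4 LKO mice higher, 3.15 without LKO 1). Aldh1l2 missed the threshold without CRE- 1 (0.0724), CRE- 2 (0.0694), CRE- 3 (0.0558), CRE- 4 (0.0577) and LKO 1 (0.0551) and passed without each of the others (edgeR adjusted p 0.0207 to 0.0724). Mthfd2, also of mitochondrial folate metabolism, ranged over 1.34 to 1.95 CPM in CRE- and 5.44 to 18.5 CPM in LKO, and rose (log2 fold change 2.56, edgeR adjusted p 0.0259, 4 of 4 LKO mice higher, 1.99 without LKO 1). Mthfd2 missed the threshold without CRE- 1 (0.0833), CRE- 2 (0.0888), CRE- 3 (0.0749), CRE- 4 (0.0687) and LKO 1 (0.0729) and passed without each of the others (edgeR adjusted p 0.0281 to 0.0888). Trib3, a pseudokinase gene induced in this response, ranged over 3.43 to 11.8 CPM in CRE- and 25.3 to 38.3 CPM in LKO, and rose (log2 fold change 2.03, edgeR adjusted p 0.0409, 4 of 4 LKO mice higher, 2.01 without LKO 1). Trib3 passed without CRE- 4 (0.031) and missed the threshold without each of the others (edgeR adjusted p 0.031 to 0.133). Pycr1, of proline synthesis, ranged over 0.178 to 0.312 CPM in CRE- and 1.04 to 1.59 CPM in LKO, and rose (log2 fold change 2.51, edgeR adjusted p 0.0322, 4 of 4 LKO mice higher, 2.42 without LKO 1). Pycr1 missed the threshold with each of the 8 mice left out in turn (edgeR adjusted p 0.0562 to 0.112). Atf5, a transcription factor related to ATF4, ranged over 290.3 to 451 CPM in CRE- and 579 to 807 CPM in LKO, and rose (log2 fold change 1.05, edgeR adjusted p 0.0317, 4 of 4 LKO mice higher, 1.13 without LKO 1). Atf5 passed without CRE- 4 (0.0205) and LKO 1 (0.0358) and missed the threshold without each of the others (edgeR adjusted p 0.0205 to 0.117).

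Some further ATF4 targets were separated between the groups without passing the adjusted threshold. Atf4 itself was at 91.2, 77.7, 44.3 and 98.8 CPM in CRE- 1 to 4 and 143, 120.3, 108 and 119.7 CPM in LKO 1 to 4. Every LKO mouse was above every CRE- mouse, but the log2 fold change of 0.66 did not pass (edgeR adjusted p 0.405, 4 of 4 LKO mice higher, 0.56 without LKO 1). Nupr1, a stress-induced chromatin protein gene, was at 2.25, 0.624, 0.468 and 2.92 CPM in CRE- 1 to 4 and 12.4, 7.47, 8.27 and 7.54 CPM in LKO 1 to 4, without overlap and with a log2 fold change of 2.50 (edgeR adjusted p 0.0549, 4 of 4 LKO mice higher, 2.28 without LKO 1). With 1 mouse left out, Nupr1 passed only at 2.99 without CRE- 4 (edgeR adjusted p 0.04, up to 0.157 without another mouse).

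Promoter windows of the called ATF4 targets were searched for TGATGNAAN, a pattern that contains the composite CEBP-ATF site. Of the 10 called targets 9 had an entry in the promoter reference, with 11 windows of 300 bases between them, and Aldh1l2 had none. The pattern was found on either strand in 4 of the 11 windows, those of Asns, Fgf21, Trib3 and Pycr1. It was present in 1299 of 32851 windows of all genes (3.95%). The genes were taken from a list of ATF4 targets, so the share among them carries no test. The cAMP response element TGACGTCA was in 0 of the 11 windows, against 1.79% of all windows. A match describes the sequence and does not show that a protein binds there. The 4 windows, from RefSeq on build GRCm38.p6, all belong to genes of the minus strand and lie at chr6:7693160-7693459 (Asns), chr7:45615441-45615740 (Fgf21), chr2:152344011-152344310 (Trib3) and chr11:120643699-120643998 (Pycr1). They read as follows in the direction of transcription, with the match in capitals.

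Asns: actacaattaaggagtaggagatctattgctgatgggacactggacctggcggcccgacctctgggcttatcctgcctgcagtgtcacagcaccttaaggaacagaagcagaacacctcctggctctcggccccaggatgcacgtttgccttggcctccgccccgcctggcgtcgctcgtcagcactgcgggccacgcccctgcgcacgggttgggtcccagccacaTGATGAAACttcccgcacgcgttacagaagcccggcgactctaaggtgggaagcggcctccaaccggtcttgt
Fgf21: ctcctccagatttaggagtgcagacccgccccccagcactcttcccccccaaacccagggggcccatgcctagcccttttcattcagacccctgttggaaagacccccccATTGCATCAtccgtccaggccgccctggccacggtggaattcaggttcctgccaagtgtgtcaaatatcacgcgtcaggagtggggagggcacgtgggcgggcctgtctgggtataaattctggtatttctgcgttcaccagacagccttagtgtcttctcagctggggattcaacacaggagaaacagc
Trib3: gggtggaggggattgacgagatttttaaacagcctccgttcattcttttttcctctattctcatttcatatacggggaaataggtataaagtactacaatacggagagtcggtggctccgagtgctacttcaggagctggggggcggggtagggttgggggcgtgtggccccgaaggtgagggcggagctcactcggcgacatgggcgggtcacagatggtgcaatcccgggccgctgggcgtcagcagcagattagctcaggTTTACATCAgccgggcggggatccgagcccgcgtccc
Pycr1: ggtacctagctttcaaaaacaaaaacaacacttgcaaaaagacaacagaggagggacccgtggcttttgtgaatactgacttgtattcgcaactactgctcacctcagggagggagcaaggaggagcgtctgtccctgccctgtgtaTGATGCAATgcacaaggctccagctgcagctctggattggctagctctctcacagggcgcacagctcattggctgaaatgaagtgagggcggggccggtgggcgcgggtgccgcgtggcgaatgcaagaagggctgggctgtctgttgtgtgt

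Serine synthesis feeds carbon units to folate in the cytosol and in mitochondria. Of 22 tested serine and folate genes, 4 rose and 0 fell by edgeR (18.2% called), namely Phgdh, Psat1, Mthfd2 and Aldh1l2, and 6 higher and 2 lower genes had an unadjusted p under 0.05. Those serine and folate genes held 2 higher and 0 lower calls without LKO 1 (6 and 2 unadjusted). The serine and folate calls numbered 2 without CRE- 1, CRE- 2, CRE- 3, CRE- 4 or LKO 1 and 4 without LKO 2, LKO 3 or LKO 4. The serine and folate median was 0.20, and 0.13 without LKO 1.

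tRNA synthetases attach amino acids to their tRNAs, and several of their genes are ATF4 targets. Of 20 tested cytosolic tRNA synthetase genes, edgeR called 0, DESeq2 3 higher and 0 lower and limma-voom 2 higher and 0 lower, while 7 higher and 0 lower genes had an unadjusted p under 0.05 (5 and 0 without LKO 1). The tRNA synthetase median was 0.24, and 0.19 without LKO 1. Of 16 tested eIF2alpha kinase and phosphatase genes, edgeR called 0 and DESeq2 and limma-voom each 1 higher and 0 lower, while 1 higher and 0 lower genes had an unadjusted p under 0.05 (1 and 0 without LKO 1). The eIF2alpha kinase and phosphatase median was 0.10, and 0.12 without LKO 1, 0.04 without LKO 2, 0.20 without CRE- 2.

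Proteins that fail to fold in the endoplasmic reticulum raise chaperone and degradation genes through ATF6 and XBP1, a branch apart from ATF4. Of 29 tested unfolded protein response genes, 2 rose and 0 fell by edgeR (6.9% called), namely Bhlha15 and Ero1b, and 3 higher and 0 lower genes had an unadjusted p under 0.05. Those unfolded protein response genes held 2 higher and 0 lower calls without LKO 1 (3 and 0 unadjusted). The unfolded protein response median was 0.06, and 0.19 without LKO 1, -0.03 without LKO 3. With 1 mouse left out the number of unfolded protein response genes called was 1 without CRE- 1, CRE- 2, CRE- 3, CRE- 4, LKO 2, LKO 3 or LKO 4 and 2 without LKO 1. Bhlha15, a transcription factor gene of secretory cells, was at 0.162, 0.356, 0.416 and 0.27 CPM in CRE- 1 to 4 and 2.37, 4.08, 3.78 and 2.65 CPM in LKO 1 to 4. Every LKO mouse was above every CRE- mouse, and Bhlha15 rose (log2 fold change 3.41, SE 0.50, edgeR adjusted p 0.00337, 4 of 4 LKO mice higher), with 3.52 without LKO 1. Bhlha15 also passed without each mouse in turn (edgeR adjusted p up to 0.0238). Ero1b, which encodes an oxidase for disulfide bonds, ranged over 50 to 66.7 CPM in CRE- and 81.8 to 168 CPM in LKO, and rose (log2 fold change 1.05, edgeR adjusted p 0.036, 4 of 4 LKO mice higher, 1.18 without LKO 1). Ero1b passed without LKO 1 (0.0126) and missed the threshold without each of the others (edgeR adjusted p 0.0126 to 0.103).

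The liver also signals to other organs through hormones and their binding proteins. The list used here also holds Lepr and Ren1, the latter close to 0 in CRE- livers. Of 24 tested hepatic hormone genes, 3 rose and 0 fell by edgeR (12.5% called), namely Fgf21, Adm2 and Ren1, and 9 higher and 1 lower genes had an unadjusted p under 0.05. Those hepatic hormone genes held 3 higher and 0 lower calls without LKO 1 (9 and 1 unadjusted). The hepatic hormone median was 0.32, and 0.26 without LKO 1. Fgf21, a hormone of the fasting and protein-restricted liver, was at 1.3, 1.31, 1.46 and 2.49 CPM in CRE- 1 to 4 and 113, 43.9, 43.3 and 43.7 CPM in LKO 1 to 4. CRE- mice were below 3 CPM and LKO mice above 43 CPM, with LKO 1 far above the other 3, and Fgf21 rose (log2 fold change 5.21, SE 0.87, edgeR adjusted p 0.0113, 4 of 4 LKO mice higher), with 4.71 without LKO 1. Fgf21 missed the threshold without CRE- 1 (0.07), CRE- 2 (0.0633) and CRE- 3 (0.0688) and passed without each of the others (edgeR adjusted p 0.021 to 0.07). Adm2, a peptide of the calcitonin family, had 0 reads in all 4 CRE- mice and 4.58, 1.58, 1.34 and 1.57 CPM in LKO 1 to LKO 4. Against a floor of 3 reads per library it was at least 33.2-fold higher in LKO, and at least 21.9-fold without LKO 1. For read counting the paper lists the options -p and -s 2, with no separate option to count pairs. Of counts from 1 to 20, 83.9% were even, as when both mates of a pair are counted. With mates counted singly, which was not tested on the reads, a floor of 3 pairs divides this and every later bound by up to 2. Adm2 passed with edgeR at an adjusted p of 0.0029 and with each of the 8 mice left out in turn (0.00711 to 0.0115). Ren1, which encodes renin, was at 0.0406, 0, 0 and 0.0449 CPM in CRE- 1 to 4 and 7, 10.6, 4.62 and 7.02 CPM in LKO 1 to 4. It was close to 0 in CRE- and above 4 CPM in each LKO mouse, and against the same floor it was at least 107-fold higher in LKO (edgeR adjusted p 0.00505, 4 of 4 LKO mice higher) and at least 108-fold without LKO 1. Ren1 also passed without each mouse in turn (edgeR adjusted p up to 0.0305).

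Among the uncalled hepatic hormone genes, Gdf15 was at 5.42, 3.32, 4.58 and 5.42 CPM in CRE- 1 to 4 and 25.2, 10.3, 14.4 and 10.3 CPM in LKO 1 to 4. The groups did not overlap, with a log2 fold change of 1.69 (edgeR adjusted p 0.0563, 4 of 4 LKO mice higher, 1.30 without LKO 1). Lepr, the leptin receptor gene, was at 1.74, 1.85, 10.3 and 2.29 CPM in CRE- 1 to 4 and 54.4, 30.1, 25.8 and 24.4 CPM in LKO 1 to 4. CRE- 3 was above the other CRE- mice but still below LKO, and the log2 fold change was 3.06 (edgeR adjusted p 0.0759, 4 of 4 LKO mice higher, 2.72 without LKO 1). With 1 mouse left out, Lepr passed only at 4.08 without CRE- 3 (edgeR adjusted p 0.0233, up to 0.22 without another mouse). Lepr also passed at 3.75 without both LKO 1 and CRE- 3 (edgeR adjusted p 0.0411).

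In de novo lipogenesis the liver turns acetyl-CoA into fatty acids, under the transcription factors SREBP-1c, ChREBP and LXR, and stearoyl-CoA desaturase then makes them monounsaturated. Of 28 tested lipogenic genes, 0 rose and 5 fell by edgeR (17.9% called), namely Scd1, Acacb, Acly, Scd3 and Scd4, and 0 higher and 15 lower genes had an unadjusted p under 0.05. Those lipogenic genes held 0 higher and 2 lower calls without LKO 1 (0 and 14 unadjusted). The lipogenic median was -0.87, and -0.92 without LKO 1. In 11 of the lipogenic genes every LKO mouse was below every CRE- mouse, against 2.92% of all genes tested. The lipogenic calls numbered 2 without CRE- 1, CRE- 2, CRE- 3, LKO 1, LKO 3 or LKO 4 and 4 without CRE- 4 or LKO 2. Scd1, the main hepatic desaturase, was at 12655, 24681, 36017 and 15433 CPM in CRE- 1 to 4 and 3275, 5136, 5167 and 4539 CPM in LKO 1 to 4. The highest LKO mouse was below the lowest CRE- mouse, CRE- 1, and Scd1 fell (log2 fold change -2.29, SE 0.32, edgeR adjusted p 0.0029, 4 of 4 LKO mice lower), with -2.18 without LKO 1. Scd1 also passed without each mouse in turn (edgeR adjusted p up to 0.0144). Acacb, the acetyl-CoA carboxylase of the mitochondrial surface, was at 174, 323, 426 and 191 CPM in CRE- 1 to 4 and 55.8, 70.7, 71.2 and 96.4 CPM in LKO 1 to 4. No LKO mouse was above 96.4 CPM and no CRE- mouse was below 174 CPM, and Acacb fell (log2 fold change -1.92, SE 0.28, edgeR adjusted p 0.00323, 4 of 4 LKO mice lower), with -1.82 without LKO 1. Acacb also passed without each mouse in turn (edgeR adjusted p up to 0.0207).

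Acly, which splits citrate into acetyl-CoA, ranged over 492 to 797 CPM in CRE- and 161 to 364 CPM in LKO, and fell (log2 fold change -1.21, edgeR adjusted p 0.0414, 4 of 4 LKO mice lower, -1.05 without LKO 1). Acly passed without LKO 2 (0.0284) and missed the threshold without each of the others (edgeR adjusted p 0.0284 to 0.121). Scd3, a relative of Scd1, ranged over 1.87 to 14.2 CPM in CRE- and 0.463 to 1.44 CPM in LKO, and fell (log2 fold change -2.84, edgeR adjusted p 0.0414, 4 of 4 LKO mice lower, -2.64 without LKO 1). Scd3 passed without CRE- 4 (0.0205) and missed the threshold without each of the others (edgeR adjusted p 0.0205 to 0.134). Scd4, of the same family, ranged over 0.382 to 3.82 CPM in CRE- and 0.129 to 0.216 CPM in LKO, and fell (log2 fold change -2.98, edgeR adjusted p 0.0433, 4 of 4 LKO mice lower, -2.86 without LKO 1). Scd4 passed without CRE- 4 (0.0205) and missed the threshold without each of the others (edgeR adjusted p 0.0205 to 0.137). Fasn, the fatty acid synthase gene, was at 1503, 2134, 3327 and 1341 CPM in CRE- 1 to 4 and 738, 1303, 621 and 966 CPM in LKO 1 to 4. The groups were apart by a small margin, LKO 2 against CRE- 4, and the log2 fold change of -1.19 did not pass (edgeR adjusted p 0.127, 4 of 4 LKO mice lower, -1.12 without LKO 1). Srebf1 was at 569, 718, 709.9 and 485 CPM in CRE- 1 to 4 and 123, 496, 165 and 290.0 CPM in LKO 1 to 4. LKO 2 lay within the CRE- values, and the log2 fold change was -1.21 (edgeR adjusted p 0.174, 4 of 4 LKO mice below the CRE- mean, -0.99 without LKO 1). With 1 mouse left out, Srebf1 passed only at -1.70 without LKO 2 (edgeR adjusted p 0.0287, up to 0.399 without another mouse).

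Of 19 tested desaturase and elongase genes, 0 rose and 5 fell by edgeR (26.3% called), 3 of them from the Scd family beside Elovl5 and the lipid transporter Mfsd2a, which the list also holds, and 0 higher and 10 lower genes had an unadjusted p under 0.05. Those desaturase and elongase genes held 0 higher and 2 lower calls without LKO 1 (0 and 10 unadjusted). The desaturase and elongase median was -0.85, and -0.78 without LKO 1. Desaturase and elongase calls numbered 2 without CRE- 1, CRE- 2, CRE- 3, LKO 1, LKO 2 or LKO 4, 3 without LKO 3 and 4 without CRE- 4. Mfsd2a, a transporter of lysophosphatidylcholine with docosahexaenoic acid, was at 53.6, 116, 55.4 and 47.8 CPM in CRE- 1 to 4 and 8.36, 3.81, 3.03 and 5.29 CPM in LKO 1 to 4. CRE- 2 was the highest by far and all LKO mice were under 9 CPM, and Mfsd2a fell (log2 fold change -3.73, SE 0.52, edgeR adjusted p 0.0029, 4 of 4 LKO mice lower), with -4.09 without LKO 1. Mfsd2a also passed without each mouse in turn (edgeR adjusted p up to 0.0171). Elovl5, an elongase of polyunsaturated fatty acids, ranged over 653 to 967 CPM in CRE- and 132 to 442 CPM in LKO, and fell (log2 fold change -1.48, edgeR adjusted p 0.0494, 4 of 4 LKO mice lower, -1.25 without LKO 1). Elovl5 passed without LKO 3 (0.047) and missed the threshold without each of the others (edgeR adjusted p 0.047 to 0.148). Of 26 tested cholesterol synthesis and uptake genes, edgeR called 0 and DESeq2 and limma-voom each 0 higher and 2 lower, while 0 higher and 7 lower genes had an unadjusted p under 0.05 (0 and 7 without LKO 1). The cholesterol median was -0.45, and -0.50 without LKO 1, -0.27 without CRE- 4. CRE- 4 was the highest library in 14 of them.

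Fatty acid oxidation and ketogenesis run under PPARalpha, and CYP4A enzymes oxidise the far end of the chain. Of 40 tested fatty acid oxidation genes, 1 rose and 0 fell by edgeR (2.5% called), the call being Cyp4a31, and 5 higher and 1 lower genes had an unadjusted p under 0.05. Those fatty acid oxidation genes held 1 higher and 0 lower calls without LKO 1 (5 and 0 unadjusted). The fatty acid oxidation median was 0.26, and 0.35 without LKO 1, 0.10 without LKO 4, 0.44 without CRE- 2. LKO 4 was the highest library in 23 and CRE- 3 the lowest in 22 of the 40. Cyp4a31 was at 1.2, 2.7, 3.67 and 1.75 CPM in CRE- 1 to 4 and 14.3, 6.33, 8.67 and 13 CPM in LKO 1 to 4. Its reads may be uncertain if near copies share its sequence, as may those of the Sult2a and Mup families, and this was not tested. The lowest LKO mouse was above the highest CRE- mouse, and Cyp4a31 rose (log2 fold change 2.19, SE 0.37, edgeR adjusted p 0.0113, 4 of 4 LKO mice higher), with 1.99 without LKO 1. Cyp4a31 missed the threshold without CRE- 1 (0.0542) and passed without each of the others (edgeR adjusted p 0.0105 to 0.0542).

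Bile acids are made from cholesterol by a classic route through CYP7A1 and by routes through oxysterols, which CYP7B1 and CYP39A1 hydroxylate. Of 35 tested bile acid genes, 1 rose and 0 fell by edgeR (2.86% called), the call being Cyp39a1, and 5 higher and 2 lower genes had an unadjusted p under 0.05. Those bile acid genes held 2 higher and 1 lower calls without LKO 1 (4 and 3 unadjusted). The bile acid median was 0.24, and 0.18 without LKO 1. Cyp39a1, whose level is normally higher in females, was at 8.5, 17, 17.4 and 9.03 CPM in CRE- 1 to 4 and 139, 78.2, 75.3 and 57 CPM in LKO 1 to 4. LKO 1 was highest and the lowest LKO mouse was above every CRE- mouse, and Cyp39a1 rose (log2 fold change 2.75, SE 0.32, edgeR adjusted p 0.000696, 4 of 4 LKO mice higher), with 2.42 without LKO 1. Cyp39a1 also passed without each mouse in turn (edgeR adjusted p up to 0.0055). Cyp7b1, a gene of male livers, was at 77.3, 86.8, 62.2 and 74.8 CPM in CRE- 1 to 4 and 90.3, 181, 172 and 179 CPM in LKO 1 to 4. LKO 2, LKO 3 and LKO 4 were near each other and LKO 1 was close to CRE- 2. The log2 fold change was 1.05 with all mice (edgeR adjusted p 0.1, 4 of 4 LKO mice higher) and 1.22 without LKO 1 (edgeR adjusted p 0.0349, 3 of 3 higher, up to 0.28 without another mouse), where it passed. Of 28 tested steroid enzyme genes, 1 rose and 0 fell by edgeR (3.57% called), the call being Hsd17b6, and 7 higher and 2 lower genes had an unadjusted p under 0.05. Those steroid enzyme genes held 1 higher and 0 lower calls without LKO 1 (7 and 3 unadjusted), a gene other than Hsd17b6. Steroid enzyme calls numbered 1 without LKO 1 or LKO 2 and 0 without each of the other mice. The steroid enzyme median was 0.42, and 0.32 without LKO 1, 0.28 without CRE- 3. Hsd17b6, which oxidises androgens and retinol, ranged over 68.7 to 95.5 CPM in CRE- and 267 to 557 CPM in LKO, and rose (log2 fold change 2.32, edgeR adjusted p 0.0273, 4 of 4 LKO mice higher, 2.14 without LKO 1). Hsd17b6 passed without LKO 2 (0.0287) and missed the threshold without each of the others (edgeR adjusted p 0.0287 to 0.0932). Hsd3b1 had 0 reads in the 4 CRE- mice and 3.29, 0, 0.0248 and 3.24 CPM in LKO 1 to LKO 4, and did not pass (edgeR adjusted p 0.116, 3 of 4 LKO mice above 0).

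Between meals glucagon promotes glucose release, through glycogen breakdown and gluconeogenesis, and insulin opposes it. Of 17 tested gluconeogenic genes, edgeR and limma-voom called 0 and DESeq2 1 higher and 0 lower, while 1 higher and 1 lower genes had an unadjusted p under 0.05 (1 and 1 without LKO 1). The gluconeogenic median was -0.02, and 0.02 without LKO 1, -0.14 without CRE- 3, 0.14 without CRE- 2. With limma-voom this median was above 0. Pck1, the rate-limiting gluconeogenic enzyme, was at 2222, 1791, 1465 and 1603 CPM in CRE- 1 to 4 and 748, 244, 1112 and 403 CPM in LKO 1 to 4. All 4 LKO mice were below all 4 CRE- mice and differed widely among themselves, and the log2 fold change of -1.50 did not pass (edgeR adjusted p 0.272, 4 of 4 LKO mice lower, -1.61 without LKO 1). Of 26 tested glycolysis and glycogen genes, edgeR, DESeq2 and limma-voom called 0, while 1 higher and 0 lower genes had an unadjusted p under 0.05 (1 and 0 without LKO 1). The glycolysis and glycogen median was -0.08, and -0.06 without LKO 1, -0.15 without CRE- 1, -0.01 without CRE- 2. It was above 0 with limma-voom. Of 25 tested insulin signalling genes, edgeR and limma-voom called 0 and DESeq2 0 higher and 1 lower, while 1 higher and 3 lower genes had an unadjusted p under 0.05 (1 and 3 without LKO 1), and edgeR called 1 lower without CRE- 4. The insulin signalling median was -0.29, and -0.26 without LKO 1, -0.09 without CRE- 3. CRE- 3 was the highest library in 16 of them. Igfbp1, which insulin represses, was at 9.01, 14.5, 12 and 15.3 CPM in CRE- 1 to 4 and 84.9, 16.4, 96.8 and 28.7 CPM in LKO 1 to 4. LKO 1 and LKO 3 were far above the other 6 mice, and the log2 fold change was 2.16 (edgeR adjusted p 0.237, 4 of 4 LKO mice higher, 1.89 without LKO 1).

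Glucagon also drives hepatic amino acid uptake, transamination and the urea cycle, which removes the nitrogen. Of 51 tested amino acid catabolism genes, 1 rose and 0 fell by edgeR (1.96% called), the call being Pycr1, a proline synthesis gene that the list also holds, and 2 higher and 7 lower genes had an unadjusted p under 0.05. Those amino acid catabolism genes held 0 higher and 0 lower calls without LKO 1 (2 and 6 unadjusted). Pycr1 was lost with each of the other mice left out as well. The amino acid catabolism median was -0.19, and -0.12 without LKO 1, -0.07 without CRE- 2. CRE- 2 was the highest library in 34 of them. Sds, which deaminates serine, was at 254, 210.4, 152 and 202 CPM in CRE- 1 to 4 and 48.4, 33.3, 107 and 34.4 CPM in LKO 1 to 4. LKO 3 was closest to CRE- 3 and the groups did not overlap, but the log2 fold change of -1.87 did not pass (edgeR adjusted p 0.109, 4 of 4 LKO mice lower, -1.82 without LKO 1). Of 10 tested urea cycle genes, edgeR, DESeq2 and limma-voom called 0, while 0 higher and 3 lower genes had an unadjusted p under 0.05 (0 and 3 without LKO 1). The urea cycle median was -0.31, and -0.29 without LKO 1, -0.49 without CRE- 3, -0.15 without CRE- 2. CRE- 2 was the highest library in 8 of these genes. Of 19 tested methionine cycle and transsulfuration genes, edgeR and limma-voom called 0 and DESeq2 1 higher and 0 lower, while 4 higher and 1 lower genes had an unadjusted p under 0.05 (1 and 1 without LKO 1). The methionine cycle median was 0.04, and 0.02 without LKO 1, -0.04 without LKO 3, 0.13 without CRE- 2.

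Of 27 tested amino acid transporter genes, 0 rose and 1 fell by edgeR (3.7% called), the call being Slc38a4, and 6 higher and 5 lower genes had an unadjusted p under 0.05. Those amino acid transporter genes held 0 higher and 0 lower calls without LKO 1 (4 and 4 unadjusted). Without LKO 3 edgeR called 1 transporter gene higher. The amino acid transporter median was -0.19, and -0.30 without LKO 1. Slc38a4, an importer of neutral amino acids, was at 1074, 1183, 1218 and 919 CPM in CRE- 1 to 4 and 555, 548, 536 and 501 CPM in LKO 1 to 4. The 4 LKO mice lay close together and all below CRE- 4, the lowest control, and Slc38a4 fell (log2 fold change -1.04, SE 0.21, edgeR adjusted p 0.0414, 4 of 4 LKO mice lower), with -1.07 without LKO 1. Slc38a4 missed the threshold with each of the 8 mice left out in turn (edgeR adjusted p 0.0504 to 0.114).

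Male and female livers differ in many genes because the sexes secrete growth hormone in different patterns, read by STAT5b, with CUX2 and BCL6 as further regulators. Several genes in which LKO 1 departed from the other LKO mice are of this kind. Of 32 tested female-biased genes, 1 rose and 0 fell by edgeR (3.12% called), the call being Cyp39a1, and 11 higher and 1 lower genes had an unadjusted p under 0.05. Those female-biased genes held 1 higher and 0 lower calls without LKO 1 (3 and 3 unadjusted). The female-biased median was 0.63, and -0.23 without LKO 1, 0.85 without LKO 3. The sign of this median therefore rested on LKO 1, which was the highest library in 22 of the 32 genes. Of 27 tested male-biased genes, edgeR called 0 and DESeq2 and limma-voom each 1 higher and 0 lower, while 6 higher and 0 lower genes had an unadjusted p under 0.05 (10 and 0 without LKO 1), and edgeR called 3 higher without LKO 1. The male-biased median was 0.36, and 0.59 without LKO 1. LKO 1 was the lowest library in 19 of the 27 genes.

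Cux2, the female-specific repressor gene, was at 0.527, 1.72, 0.416 and 0.36 CPM in CRE- 1 to 4 and 60.4, 0.833, 0.894 and 0.54 CPM in LKO 1 to 4. Sult2a1, a hydroxysteroid sulfotransferase gene, was at 0.0406, 0.267, 0 and 0.0449 CPM in CRE- 1 to 4 and 116, 0.125, 0 and 0 CPM in LKO 1 to 4. In these 2 genes LKO 1 alone was high, and the log2 fold changes of 4.36 and 8.28 became -0.01 and -0.91 without it, with neither past the edgeR threshold in either fit (adjusted p 0.174 and 0.119 with all mice, carried by 1 of 4 LKO mice). Slco1a4, an organic anion transporter gene, was at 36.1, 31.1, 43.8 and 21.1 CPM in CRE- 1 to 4 and 167, 6.89, 11.6 and 10.5 CPM in LKO 1 to 4. LKO 1 was above all other mice while LKO 2, LKO 3 and LKO 4 were below all CRE- mice, so the log2 fold change of 0.57 (edgeR adjusted p 0.832, 1 of 4 LKO mice higher) became -1.79 without LKO 1 (edgeR adjusted p 0.0102, 3 of 3 lower, up to 0.999 without another mouse). Mup11, a major urinary protein gene, was at 5.68, 30.4, 3.69 and 5.84 CPM in CRE- 1 to 4 and 0, 615, 126 and 609.8 CPM in LKO 1 to 4. LKO 1 had no reads and the other 3 LKO mice were above all CRE- mice, and the log2 fold change went from 4.89 (edgeR adjusted p 0.153, 3 of 4 LKO mice higher) to 5.29 without LKO 1 (edgeR adjusted p 0.00781, 3 of 3 higher, up to 0.371 without another mouse). Hsd3b5, a steroid dehydrogenase gene of males, was at 2.92, 0.847, 9.72 and 2.2 CPM in CRE- 1 to 4 and 0.103, 119, 99.7 and 47.5 CPM in LKO 1 to 4. Here too LKO 1 was the lowest mouse, and the log2 fold change went from 4.09 (edgeR adjusted p 0.153, 3 of 4 LKO mice higher) to 4.49 (edgeR adjusted p 0.0126, 3 of 3 higher, up to 0.371 without another mouse). Cav1, the caveolin gene, was at 3.45, 3.21, 4.42 and 6.02 CPM in CRE- 1 to 4 and 2.65, 38.4, 35 and 38.4 CPM in LKO 1 to 4. LKO 1 was below every CRE- mouse and the other 3 LKO mice were far above them, and Cav1 was called with all mice (log2 fold change 2.74, edgeR adjusted p 0.0468, 3 of 4 LKO mice higher) and without LKO 1 (3.11). Cav1 passed without LKO 1 (0.00108) and missed the threshold without each of the others (edgeR adjusted p 0.00108 to 0.157). Fmn1, which encodes a formin and was, like Slco1a4, picked after its values were seen, ranged over 7.66 to 11.7 CPM in CRE- and 1.59 to 4.91 CPM in LKO. Its log2 fold change of -1.61 with all mice just missed the threshold (edgeR adjusted p 0.0573). Without LKO 1 it was -1.94 and passed (edgeR adjusted p 0.0358, 3 of 3 lower, up to 0.169 without another mouse).

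**Figure D2:**
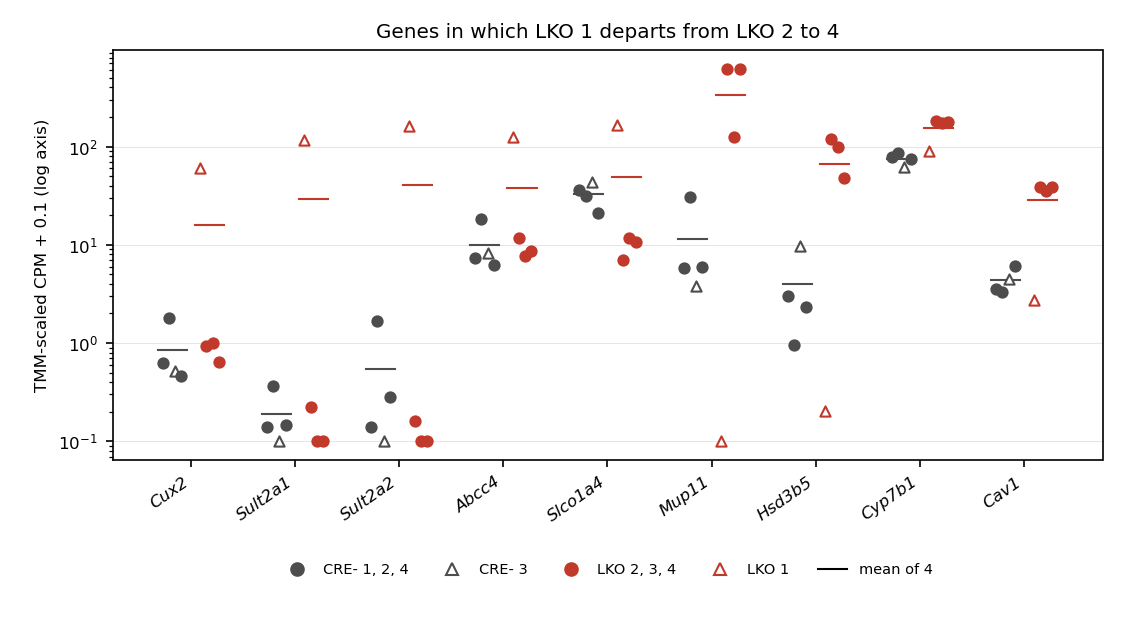
Level of 9 genes in which LKO 1 differed from the other LKO mice, in CPM + 0.1 on a log axis, for each of the 8 male livers, with CRE- in grey, LKO in red and open triangles for CRE- 3 and LKO 1. LKO 1 was at 116 CPM of Sult2a1 where every other mouse was at 0.267 CPM or less, and at 0 CPM of Mup11.

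Drug metabolism proceeds through P450 oxidation and then conjugation, and NRF2 raises antioxidant and conjugating genes. Of 48 tested drug-metabolizing P450 genes, edgeR and limma-voom called 0 and DESeq2 1 higher and 0 lower, while 9 higher and 0 lower genes had an unadjusted p under 0.05 (5 and 0 without LKO 1), and edgeR called 1 higher without CRE- 2. The P450 median was 0.46, and 0.23 without LKO 1. LKO 1 was the highest library in 21 of them. Of 79 tested conjugation, hydrolysis and drug transport genes, edgeR called 0, DESeq2 4 higher and 4 lower and limma-voom 1 higher and 2 lower, while 15 higher and 7 lower genes had an unadjusted p under 0.05 (4 and 8 without LKO 1). The conjugation and transport median was 0.22, and 0.13 without LKO 1, 0.40 without CRE- 2. Of 32 tested NRF2 target genes, 1 rose and 0 fell by edgeR (3.12% called), the call being Osgin1, and 11 higher and 0 lower genes had an unadjusted p under 0.05. Those NRF2 target genes held 1 higher and 0 lower calls without LKO 1 (4 and 0 unadjusted). The NRF2 target median was 0.47, and 0.18 without LKO 1. LKO 1 was the highest library in 22 of them. Osgin1, an oxidative stress gene, was at 143, 96.8, 86.6 and 137 CPM in CRE- 1 to 4 and 535, 253, 601 and 288 CPM in LKO 1 to 4. LKO 1 and LKO 3 were the highest and all LKO mice were above CRE- 1, the highest control, and Osgin1 rose (log2 fold change 1.86, SE 0.30, edgeR adjusted p 0.0093, 4 of 4 LKO mice higher), with 1.70 without LKO 1. Osgin1 missed the threshold without CRE- 3 (0.0558) and passed without each of the others (edgeR adjusted p 0.0121 to 0.0558).

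Of 24 tested nuclear receptor genes, 0 rose and 1 fell by edgeR (4.17% called), the call being Esr1, and 1 higher and 3 lower genes had an unadjusted p under 0.05. Those nuclear receptor genes held 0 higher and 1 lower calls without LKO 1 (1 and 1 unadjusted). The nuclear receptor median was -0.01, and 0.00 without LKO 1, -0.08 without CRE- 1, 0.11 without CRE- 3. Under upper-quartile scaling and with limma-voom it was above 0. Esr1, estrogen receptor alpha, was at 26.1, 22.9, 39.4 and 21.4 CPM in CRE- 1 to 4 and 14.2, 11.7, 10.7 and 6.97 CPM in LKO 1 to 4. The highest LKO mouse, LKO 1, was below CRE- 4, and Esr1 fell (log2 fold change -1.33, SE 0.26, edgeR adjusted p 0.036, 4 of 4 LKO mice lower), with -1.50 without LKO 1. Esr1 passed without CRE- 4 (0.0366) and LKO 1 (0.0349) and missed the threshold without each of the others (edgeR adjusted p 0.0349 to 0.0967). Of 18 tested growth hormone axis genes, edgeR and limma-voom called 0 and DESeq2 2 higher and 1 lower, while 4 higher and 4 lower genes had an unadjusted p under 0.05 (2 and 4 without LKO 1). The growth hormone axis median was -0.09, and -0.02 without LKO 1, -0.19 without CRE- 1, 0.00 without CRE- 2. With limma-voom its sign was positive.

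Hepatocytes near the portal vein and near the central vein express different genes, the latter under Wnt signals. Of 17 tested periportal genes, edgeR called 0 and DESeq2 and limma-voom each 0 higher and 2 lower, while 0 higher and 7 lower genes had an unadjusted p under 0.05 (0 and 7 without LKO 1). The periportal median was -0.58, and -0.60 without LKO 1. Of 24 tested pericentral genes, edgeR called 0 and DESeq2 and limma-voom each 1 higher and 0 lower, while 2 higher and 0 lower genes had an unadjusted p under 0.05 (2 and 0 without LKO 1). The pericentral median was 0.00, and 0.03 without LKO 1, -0.12 without LKO 2, 0.16 without CRE- 2. CRE- 3 was the lowest library in 16 of the pericentral genes. Notum, a Wnt antagonist gene of pericentral cells, was at 32.8, 31.4, 10.3 and 31.2 CPM in CRE- 1 to 4 and 83.3, 63.2, 66.4 and 68 CPM in LKO 1 to 4. All LKO mice were above all CRE- mice and CRE- 3 was lowest, and the log2 fold change was 1.41 (edgeR adjusted p 0.101, 4 of 4 LKO mice higher, 1.30 without LKO 1), with 1.13 without CRE- 3.

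The respiratory chain of mitochondria is encoded partly in the nucleus and partly in mitochondrial DNA. Of 79 tested nuclear-encoded respiratory chain genes, edgeR and limma-voom called 0 and DESeq2 1 higher and 0 lower, while 2 higher and 0 lower genes had an unadjusted p under 0.05 (2 and 0 without LKO 1). The respiratory chain median was 0.28, and 0.32 without LKO 1, 0.07 without CRE- 3. Their log2 fold changes were above 0 in 76 genes, and CRE- 3 was the lowest library in 75 of the 79 and LKO 4 the highest in 54. Of 15 tested mitochondrially encoded transcripts, edgeR, DESeq2 and limma-voom called 0, while 0 higher and 0 lower genes had an unadjusted p under 0.05 (0 and 0 without LKO 1). The mitochondrial transcript median was -0.04, and 0.10 without LKO 1, -0.12 without CRE- 1. LKO 1 was the lowest library in 10 of them. With limma-voom the median was above 0. Of 20 tested circadian clock genes, edgeR, DESeq2 and limma-voom called 0, while 0 higher and 1 lower genes had an unadjusted p under 0.05 (2 and 0 without LKO 1). The clock median was -0.23, and -0.27 without LKO 1, -0.40 without LKO 2. LKO 3 was the lowest library in 13 of the clock genes.

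The liver makes acute phase proteins and complement, which respond to inflammatory cytokines. Of 34 tested acute phase genes, edgeR called 0, DESeq2 0 higher and 4 lower and limma-voom 0 higher and 1 lower, while 0 higher and 6 lower genes had an unadjusted p under 0.05 (0 and 5 without LKO 1), and edgeR called 1 lower without CRE- 2. The acute phase median was -0.40, and -0.36 without LKO 1, -0.26 without CRE- 2. CRE- 4 was the highest library in 19 of them. Of 36 tested complement genes, edgeR called 0, DESeq2 0 higher and 2 lower and limma-voom 0 higher and 1 lower, while 0 higher and 6 lower genes had an unadjusted p under 0.05 (0 and 6 without LKO 1), and edgeR called 1 lower without LKO 3 and 1 lower without LKO 4. The complement median was -0.18, and -0.12 without LKO 1. LKO 1 was the lowest library in 22 of them. C9, of the terminal complement complex, was at 353, 324, 419 and 399 CPM in CRE- 1 to 4 and 44.8, 127, 204 and 122 CPM in LKO 1 to 4. The groups did not overlap and LKO 1 was lowest, and the log2 fold change of -1.59 did not pass (edgeR adjusted p 0.0556, 4 of 4 LKO mice lower, -1.32 without LKO 1), except at -1.93 without LKO 3 (edgeR adjusted p 0.0315, up to 0.154 without another mouse). Of 52 tested interferon-stimulated genes, edgeR, DESeq2 and limma-voom called 0, while 1 higher and 3 lower genes had an unadjusted p under 0.05 (0 and 5 without LKO 1). The interferon-stimulated median was -0.14, and -0.39 without LKO 1, 0.01 without CRE- 4. CRE- 4 was the highest library in 21 of them and CRE- 1 in 15. Of 39 tested cGAS-STING and NF-kB genes, edgeR, DESeq2 and limma-voom called 0, while 1 higher and 2 lower genes had an unadjusted p under 0.05 (0 and 4 without LKO 1). The NF-kB median was -0.07, and -0.26 without LKO 1, 0.08 without CRE- 4.

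Immediate early genes respond within minutes to growth factors and stress. Of 25 tested immediate early genes, 0 rose and 1 fell by edgeR (4% called), the call being Errfi1, and 2 higher and 2 lower genes had an unadjusted p under 0.05. Those immediate early genes held 0 higher and 1 lower calls without LKO 1 (3 and 2 unadjusted). The immediate early median was 0.27, and -0.02 without LKO 1, 0.43 without CRE- 4. With limma-voom the sign of this median was negative. Errfi1, a feedback inhibitor of the EGF receptor, was at 655, 1001, 673 and 453 CPM in CRE- 1 to 4 and 258, 207, 208 and 136 CPM in LKO 1 to 4. All LKO mice were below all CRE- mice, and Errfi1 fell (log2 fold change -1.78, SE 0.34, edgeR adjusted p 0.0297, 4 of 4 LKO mice lower), with -1.93 without LKO 1. Errfi1 passed without CRE- 4 (0.0243) and LKO 1 (0.0485) and missed the threshold without each of the others (edgeR adjusted p 0.0243 to 0.0975). Of 21 tested oncofetal and tumour genes, edgeR called 0, DESeq2 2 higher and 1 lower and limma-voom 0 higher and 1 lower, while 3 higher and 2 lower genes had an unadjusted p under 0.05 (2 and 2 without LKO 1). The oncofetal median was 0.48, and 0.20 without LKO 1, 0.19 without CRE- 2.

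**Figure D3:**
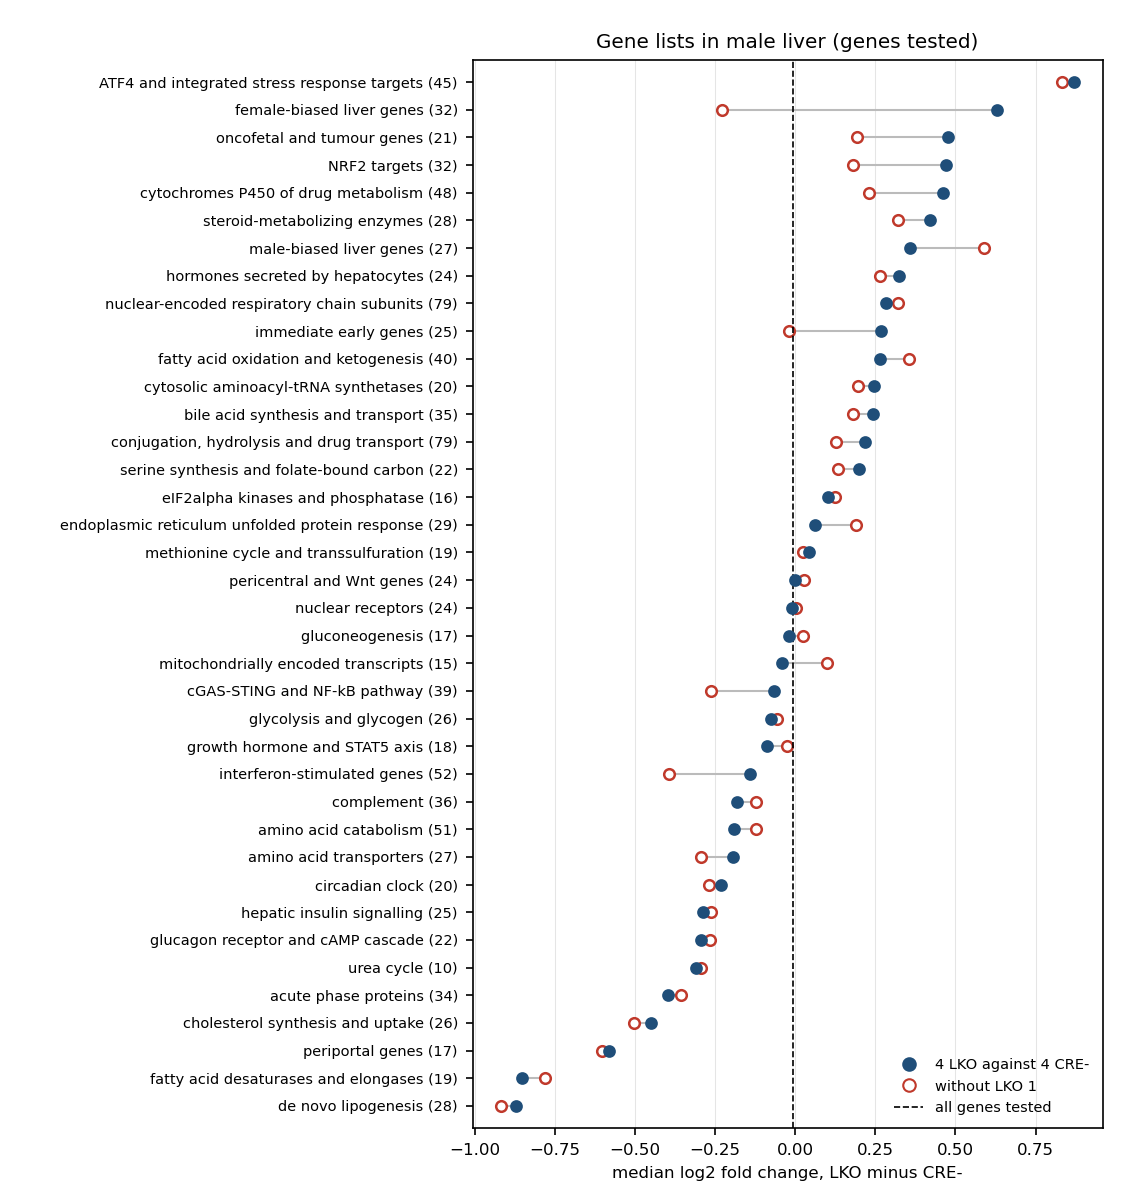
Median log2 fold change of male LKO against male CRE- for each of the 38 gene lists, with filled circles for all mice, open circles without LKO 1 and a dashed line at the median of all genes tested. The ATF4 targets were at 0.87 and the lipogenic genes at -0.87 with all mice, and the female-biased genes moved from 0.63 to -0.23 without LKO 1.

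Several genes outside the lists were among those with the smallest p-values. Pstpip2, a cytoskeletal adaptor of myeloid cells, was at 43.1, 53.6, 45.3 and 52 CPM in CRE- 1 to 4 and 15.4, 16.5, 15.2 and 16.2 CPM in LKO 1 to 4. The 4 LKO mice lay within 2 CPM of each other and all far below the controls, and Pstpip2 fell (log2 fold change -1.62, SE 0.18, edgeR adjusted p 0.000425, 4 of 4 LKO mice lower), with -1.62 without LKO 1. Pstpip2 also passed without each mouse in turn (edgeR adjusted p up to 0.00336). Pcp4l1, a small calmodulin-binding protein gene, was at 3.25, 6.66, 1.09 and 2.52 CPM in CRE- 1 to 4 and 60.3, 53.5, 53.1 and 45.8 CPM in LKO 1 to 4. The CRE- values were all under 7 CPM and the LKO values all above 45 CPM, and Pcp4l1 rose (log2 fold change 3.97, SE 0.57, edgeR adjusted p 0.00323, 4 of 4 LKO mice higher), with 3.90 without LKO 1. Pcp4l1 also passed without each mouse in turn (edgeR adjusted p up to 0.0226). Wnk4, a kinase gene of ion transport, was at 1.3, 1.07, 1.72 and 1.35 CPM in CRE- 1 to 4 and 5.56, 8.52, 13.8 and 10.3 CPM in LKO 1 to 4. There was no overlap, and Wnk4 rose (log2 fold change 2.81, SE 0.45, edgeR adjusted p 0.00822, 4 of 4 LKO mice higher), with 2.99 without LKO 1. Wnk4 also passed without each mouse in turn (edgeR adjusted p up to 0.0471). Wnt10a, a Wnt ligand gene, was at 0, 0, 0 and 0.0899 CPM in CRE- 1 to 4 and 3.11, 0.791, 8.72 and 1.13 CPM in LKO 1 to 4. It was almost without reads in CRE-, and against a floor of 3 reads per library it was at least 46.5-fold higher in LKO (edgeR adjusted p 0.0166, 4 of 4 LKO mice higher) and at least 48-fold without LKO 1. Wnt10a missed the threshold without CRE- 1 (0.0724), CRE- 2 (0.0759) and CRE- 3 (0.0749) and passed without each of the others (edgeR adjusted p 0.0173 to 0.0759).

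Baalc, Pcdh20 and Vmn2r3 had 0 reads in all 4 CRE- mice, so their folds are given against a floor of 3 reads per library. Pcdh20 and Vmn2r3 were picked after their values were seen. Baalc, a gene known from leukemia, was at 0.926, 0.375, 1.54 and 0.81 CPM in LKO 1 to LKO 4. It was at least 13.4-fold higher in LKO (edgeR adjusted p 0.00323, 4 of 4 LKO mice above 0), at least 13.3-fold without LKO 1, and passed with each of the 8 mice left out (0.00564 to 0.0126). Pcdh20, a protocadherin gene, was at 0.463, 0.375, 3.48 and 0.594 CPM in LKO 1 to LKO 4. LKO 3 was highest, and the gene was at least 18-fold higher (edgeR adjusted p 0.0414, 4 of 4 LKO mice above 0) and at least 21.7-fold without LKO 1, but missed the edgeR threshold with each of the 8 mice left out (0.0562 to 0.112). Vmn2r3, a vomeronasal receptor gene, was at 0.0514, 6.52, 2.68 and 12.2 CPM in LKO 1 to LKO 4. LKO 1 was near 0, and the gene was at least 78.7-fold higher (edgeR adjusted p 0.0494, 4 of 4 LKO mice above 0) and at least 105-fold without LKO 1 (edgeR adjusted p 0.02), the only mouse whose removal kept it past the threshold (0.02 to 0.134).

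Acp3, an acid phosphatase gene, was at 20, 10.6, 14.5 and 20.5 CPM in CRE- 1 to 4 and 1.23, 0.708, 0.447 and 0.756 CPM in LKO 1 to 4. LKO values were all under 2 CPM, and Acp3 fell (log2 fold change -4.38, SE 0.63, edgeR adjusted p 0.00323, 4 of 4 LKO mice lower), with -4.70 without LKO 1. Acp3 also passed without each mouse in turn (edgeR adjusted p up to 0.0234). Dct, known as a melanin synthesis gene, was at 1.7, 5.61, 0.624 and 2.65 CPM in CRE- 1 to 4 and 0.0514, 0.0416, 0.0497 and 0.216 CPM in LKO 1 to 4. LKO 4 was above the other LKO mice and still below CRE- 3, and against the same floor of 3 reads Dct was at least 24.6-fold lower in LKO (edgeR adjusted p 0.00435, 4 of 4 LKO mice lower) and at least 22.5-fold without LKO 1. Dct also passed without each mouse in turn (edgeR adjusted p up to 0.0281). Slc23a1, a vitamin C transporter gene, was at 62.8, 72.8, 80.8 and 63.6 CPM in CRE- 1 to 4 and 16.4, 33.9, 24.4 and 31.4 CPM in LKO 1 to 4. The groups did not overlap, and Slc23a1 fell (log2 fold change -1.40, SE 0.23, edgeR adjusted p 0.0108, 4 of 4 LKO mice lower), with -1.24 without LKO 1. Slc23a1 also passed without each mouse in turn (edgeR adjusted p up to 0.047). Mr1, which presents vitamin B metabolites to T cells, was at 9.54, 9.91, 15.1 and 10.9 CPM in CRE- 1 to 4 and 4.27, 4.48, 2.93 and 3.05 CPM in LKO 1 to 4. LKO mice were all below 5 CPM, and Mr1 fell (log2 fold change -1.62, SE 0.27, edgeR adjusted p 0.00992, 4 of 4 LKO mice lower), with -1.72 without LKO 1. Mr1 also passed without each mouse in turn (edgeR adjusted p up to 0.0464).

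Fam83f ranged over 4.32 to 7.15 CPM in CRE- and 0.36 to 1.34 CPM in LKO, and fell (log2 fold change -2.96, edgeR adjusted p 0.00323, 4 of 4 LKO mice lower, -2.75 without LKO 1). Adamtsl1 ranged over 1.79 to 3.48 CPM in CRE- and 0.216 to 0.669 CPM in LKO, with CRE- 3 highest, and fell (log2 fold change -2.44, edgeR adjusted p 0.00817, 4 of 4 LKO mice lower, -2.78 without LKO 1). P2ry4, a nucleotide receptor gene, ranged over 6.99 to 14 CPM in CRE- and 1.7 to 4.7 CPM in LKO, and fell (log2 fold change -1.78, edgeR adjusted p 0.0113, 4 of 4 LKO mice lower, -1.59 without LKO 1). These 3 genes also passed without each mouse in turn (edgeR adjusted p up to 0.0236, 0.036 and 0.0484). Arhgap26, which encodes a GTPase-activating protein, ranged over 18.7 to 34.3 CPM in CRE- and 7.23 to 11.1 CPM in LKO, and fell (log2 fold change -1.42, edgeR adjusted p 0.0164, 4 of 4 LKO mice lower, -1.35 without LKO 1). Arhgap26 missed the threshold without CRE- 3 (0.0519), LKO 1 (0.0551) and LKO 2 (0.0562) and passed without each of the others (edgeR adjusted p 0.0234 to 0.0562). Sulf2, which trims sulfate from heparan sulfate, ranged over 9.92 to 27.5 CPM in CRE- and 2.42 to 5.17 CPM in LKO, and fell (log2 fold change -2.00, edgeR adjusted p 0.023, 4 of 4 LKO mice lower, -2.09 without LKO 1). Sulf2 missed the threshold without CRE- 2 (0.0628), CRE- 3 (0.0709), LKO 2 (0.0717) and LKO 4 (0.0711) and passed without each of the others (edgeR adjusted p 0.0205 to 0.0717).

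Marker genes of other cell types were read as levels, with calls listed as higher and lower, and whether a difference in cell number lay behind them was not tested. In bulk RNA fewer cells of a type and less RNA per cell cannot be told apart. The neutrophil markers summed to 192, 56.1, 33.3 and 358 CPM in CRE- 1 to 4 and 47, 37.7, 27.2 and 28 CPM in LKO 1 to 4. CRE- 1 and CRE- 4 were far above the other 6 mice, with Lcn2 the most abundant marker and none at 0 in all libraries (15 of 16 tested, 0 higher and 0 lower by edgeR, 0 and 5 by DESeq2, 0 and 0 by limma-voom, 0 higher and 10 lower with an unadjusted p under 0.05, median -2.24, -2.68 without LKO 1, -1.45 without CRE- 4). Leaving out CRE- 2 gave 1 neutrophil gene called lower by edgeR. Lcn2 and Ltf are also on the acute phase list, so the sum need not stand for neutrophils alone. Erythroid markers summed to 783, 639, 574 and 1057 CPM in CRE- 1 to 4 and 200.3, 403, 313 and 500.4 CPM in LKO 1 to 4. All 4 LKO mice were below all 4 CRE- mice with LKO 1 lowest, and Hbb-bs was the most abundant (11 of 12 tested, 0 higher and 0 lower by edgeR, 0 and 2 by DESeq2, 0 and 0 by limma-voom, 0 higher and 7 lower with an unadjusted p under 0.05, median -1.28, -1.14 without LKO 1). Skeletal muscle markers summed to 22.4, 16.6, 24.1 and 17.3 CPM in CRE- 1 to 4 and 12.5, 12.7, 264 and 154 CPM in LKO 1 to 4. LKO 3 and LKO 4 alone were high, with Acta1 at 38.2 and 30.6 CPM in these mice and at most 0.178 CPM in the others, and Des was the most abundant marker on average (18 of 18 tested, 0 higher and 0 lower by edgeR, 10 and 0 by DESeq2, 0 and 0 by limma-voom, 16 higher and 1 lower with an unadjusted p under 0.05, median 7.17, 7.57 without LKO 1, and with reads under 3 set to 3 a median log2 ratio of 5.49, 5.89 without LKO 1). Leaving out LKO 2 gave 1 muscle gene called higher by edgeR. Pancreatic acinar markers summed to 7.45, 245, 3.17 and 10.9 CPM in CRE- 1 to 4 and 10.3, 28.8, 18 and 14.4 CPM in LKO 1 to 4. CRE- 2 alone was high, Cela1 was the most abundant, 0 were called by edgeR, DESeq2 and limma-voom, and Amy2a5 was at 0 in all 8 libraries (2 of 12 tested, 0 higher and 1 lower with an unadjusted p under 0.05, median -1.97, -1.80 without LKO 1, -2.34 without CRE- 3, 0.96 without CRE- 2).

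Kupffer cell and macrophage markers summed to 1227, 598, 343 and 1804 CPM in CRE- 1 to 4 and 1600.4, 840.0, 921 and 817 CPM in LKO 1 to 4. CRE- 4, LKO 1 and CRE- 1 were highest and the groups overlapped, with Lyz2 the most abundant (14 of 14 tested, 0 higher and 0 lower with an unadjusted p under 0.05, median 0.03, -0.41 without LKO 1, 0.48 without CRE- 4). T and NK cell markers summed to 29.9, 9.67, 10.3 and 35.2 CPM in CRE- 1 to 4 and 35.9, 20.7, 15 and 11.1 CPM in LKO 1 to 4, led by Lck (13 of 13 tested, 0 higher and 0 lower with an unadjusted p under 0.05, median -0.15, -0.62 without LKO 1, 0.12 without CRE- 4). B and plasma cell markers, led by Xbp1, which hepatocytes also express, summed to 869, 842, 716 and 1082 CPM in CRE- 1 to 4 and 969, 887, 978 and 743 CPM in LKO 1 to 4 (14 of 14 tested, 0 higher and 1 lower with an unadjusted p under 0.05, median 0.08, -0.04 without LKO 1, 0.25 without CRE- 4). Endothelial markers summed to 359, 531, 464 and 481 CPM in CRE- 1 to 4 and 513, 528, 563 and 558 CPM in LKO 1 to 4, led by Plvap, and the call was Cav1 (13 of 13 tested, 1 higher and 0 lower by edgeR, 1 and 0 by DESeq2, 0 and 0 by limma-voom, 2 higher and 1 lower with an unadjusted p under 0.05, median 0.21, 0.15 without LKO 1, 0.10 without CRE- 1). Stellate cell and fibroblast markers summed to 388, 365, 769.6 and 479 CPM in CRE- 1 to 4 and 550.0, 373, 351 and 337 CPM in LKO 1 to 4, led by Dcn, with CRE- 3 highest (14 of 14 tested, 0 higher and 1 lower with an unadjusted p under 0.05, median -0.50, -0.68 without LKO 1, -0.02 without CRE- 3). Cholangiocyte markers summed to 75.8, 55.4, 58 and 122 CPM in CRE- 1 to 4 and 97.5, 88.4, 112 and 107 CPM in LKO 1 to 4, led by Spp1 (10 of 10 tested, 0 higher and 0 lower with an unadjusted p under 0.05, median 0.50, 0.42 without LKO 1, 0.77 without CRE- 4). Adipocyte markers, led by Cfd, summed to 31.1, 133, 123 and 79.5 CPM in CRE- 1 to 4 and 37.4, 156, 53.9 and 192 CPM in LKO 1 to 4 (8 of 9 tested, 2 higher and 0 lower with an unadjusted p under 0.05, median 1.12, 1.50 without LKO 1, -0.18 without LKO 4, 1.64 without CRE- 2, and with reads under 3 set to 3 a median log2 ratio of 0.74, 0.98 without LKO 1). Markers of proliferating cells, led by Mcm2, summed to 22.5, 15.4, 31.1 and 19.3 CPM in CRE- 1 to 4 and 26.7, 18.9, 27.1 and 15.9 CPM in LKO 1 to 4 (12 of 12 tested, 1 higher and 0 lower with an unadjusted p under 0.05, median 0.40, 0.29 without LKO 1, 0.26 without CRE- 2). In each of these lists except the endothelial one edgeR, DESeq2 and limma-voom called 0, and none had a gene at 0 in all libraries.

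The female LKO and CRE- livers in the fit were also used to ask whether the male response differed from theirs. The difference between the sexes in the LKO effect passed edgeR's test in 0 genes, while 2672 had an unadjusted p under 0.05 (16%) and DESeq2 called 371. Without LKO 1 edgeR called 14 genes for this difference, and without CRE- 2 it called 2. Of the 76 male calls, 68 had the same sign in females, against 46% of all genes tested, and 35 had an unadjusted p under 0.05 for the difference. The 76 were chosen by their male effect, which is part of that difference, so the 35 cannot be set against the 16% of all genes. Mfsd2a had a log2 fold change of -0.58 in females against -3.73 in males (edgeR adjusted p of the difference 0.135). For Pde4b it was -0.37 in females against -2.04 in males (edgeR adjusted p of the difference 0.135). In Pcp4l1 the fold change was 0.61 in females against 3.97 in males (edgeR adjusted p of the difference 0.135). For Asns it was 4.50 in females against 6.32 in males (edgeR adjusted p of the difference 0.294). In Fgf21 it was 4.04 in females against 5.21 in males (edgeR adjusted p of the difference 0.579). For Scd1 it was -2.03 in females against -2.29 in males (edgeR adjusted p of the difference 0.784).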

How the data were processed

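The authors aligned RNA-seq reads of 16 mouse livers to GRCm39 with STAR 2.7.1a and deposited gene counts from featureCounts (Subread 2.0.6). Of counts from 1 to 20, 83.9% were even, as when both mates are counted. The 8 male libraries held 33,351,783 to 49,713,515 counts on genes. Genes passing filterByExpr (minimum count 10) were scaled by TMM and fitted by edgeR 4.0.16 quasi-likelihood (R 4.3.3) in all 16 libraries as 4 groups, males compared as LKO against CRE-, with Benjamini-Hochberg adjustment over the 16742 genes tested and a threshold of 0.05. CPM use TMM-scaled library sizes. Scripts were tested on simulated data. Replicate pairs differed by 37.0 to 442 times counting noise, so none is a duplicate.

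Named genes are Gcgr, list and marker members, and the 15 higher and 15 lower called genes with the smallest p whose groups did not overlap, without predicted Gm and Rik genes. Some genes under this rule are not reported here. Lists and members were chosen with earlier results of these data known. Promoter windows come from GRCm38.p6. Alternatives were other scaling, DESeq2 1.42.0, limma-voom (limma 3.58.1), males alone, other filters and thresholds, a replicate block and each male mouse left out. Female livers entered only the shared fit and the comparison of the sexes.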

Additional observations from a re-analysis of the deposited data

Results flagged for a closer look

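In 96 groups of 4 mice (library measures, marker sums and named genes), 15 held a mouse further from the other 3 than Dixon's 95% critical value for 4 samples allows. Chance gives about 1 in 20 groups, and the groups share mice.

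Of these, LKO 1 held the highest value of its group in 6: the TMM factor (1.17, others 1.01 or less), summed Kupffer cell and macrophage markers (1600.4 CPM), summed stellate cell and fibroblast markers (550.0 CPM), Psat1 (54.6 CPM), Adm2 (4.58 CPM) and Fgf21 (113 CPM). LKO 4 was highest in its group for Dct (0.216 CPM).

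CRE- 3 was lowest in its group for Gcgr (127 CPM) and highest for Adamtsl1 (3.48 CPM) and Arhgap26 (34.3 CPM). CRE- 2 was highest for summed pancreatic acinar markers (245 CPM) and Mfsd2a (116 CPM). CRE- 4 was highest for Asns (0.854 CPM), Fgf21 (2.49 CPM) and Wnt10a (0.0899 CPM, the other 3 at 0).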

How the results depend on the processing

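Beside the 76 genes called by edgeR (37 higher, 39 lower), DESeq2 called 339 (164 and 175), among them all 76, and limma-voom 148 (55 and 93). RLE scaling gave 75, upper-quartile scaling 72, the male libraries alone 107, with 59 of the 76 among them, and no filter 91. Asking for 10 counts in every male library gave 55 (23 and 32), an adjusted p under 0.01 gave 22 (11 and 11), and a minimum log2 fold change of 1 in either direction gave 74. With 1 mouse left out, edgeR called 26 to 49 genes, 12 to 24 higher and 13 to 28 lower. Without both LKO 1 and CRE- 3, an alternative chosen after seeing the data, it called 31 (20 and 11). The sex difference gave 0 genes in edgeR, 371 in DESeq2, 0 to 14 with 1 male mouse left out and 8 without both. Apart from the stricter thresholds and the smaller groups, the cause was not tested.

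With the number within each sex as a replicate block, edgeR called 67 genes (35 and 32), 49 of them among the 76, and the Gcgr log2 fold change was -0.36 (SE 0.20, edgeR adjusted p 0.546, 0.354 to 0.936 over all alternatives, 4 of 4 LKO mice below the CRE- mean). After group means were removed, mice sharing a number correlated at 0.170, 0.170, 0.144 and -0.013, and only numbers 1 and 3 correlated best with their own.

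The 30 genes named by smallest p kept their direction in all 323 fits under other settings (300 past the threshold) and all 240 with 1 mouse left out (220 past, 23 genes in each). The 76 calls kept it in all 816 (637 past) and all 608 (272 past, 23 genes in each). Of 646 list medians, 10 moved beyond the spread between mice and 44 changed sign. Depth leaves a floor of 0.0609 to 0.0810 CPM for 3 reads, so the fold of a call is given as a bound where 3 or 4 mice of the lower group had 3 reads or fewer. The options the paper lists and the even counts are those of mates counted singly, which was not tested on the reads. A floor of 3 pairs is then 6 reads and divides these bounds by up to 2.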

Other observations

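Each group held 4 mice, and leaving out 1 of them lowered the number of calls in all 8 cases. A gene that was not called is not shown to be unchanged. The libraries are bulk liver RNA, in which a marker sum does not separate cell number from level per cell. Gcgr was counted over the whole gene, so reads of exons outside a deleted part add to its value. Mice of 1 group carry Cre and the others do not, so Cre and receptor loss are not separated. RNA level is not protein, flux or hormone. Plasma hormones and metabolites were not analysed here. Promoter sequence shows only that a site is present, not that a protein binds it.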
